A study of Mus musculus with 6 samples.

Results

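The genes described here are the G1 cyclins, cyclin-dependent kinases (CDKs) and CDK inhibitors of EO771 cells, together with Rb1 and E2f1 on which they act. They were chosen by symbol, and 9 of the 10 named genes have a row among the 19832 genes of the table: Ccnd1, Ccnd3, Cdk2, Cdk4, Cdk6, Cdkn1b, Cdkn2b, Rb1 and E2f1. Ccnd2 was not analysed here. All 9 reached the level required for testing. EO771 is a mouse mammary tumour line. The labels describe 3 libraries of control cells and 3 of cells treated with recombinant lipocalin-2 (LCN2), a secreted siderophore-binding protein of the lipocalin family, and the comparison asks how transcript levels differ when LCN2 is added. No dose or exposure time is given. Whether the replicates were separate cultures is not stated, so a p-value here reflects only how these samples vary, possibly for technical reasons. In bulk RNA fewer cells in a cycle phase and less RNA per cell cannot be told apart.

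D-type cyclins carry growth signals into the cell cycle by activating CDK4 and CDK6, which begin the phosphorylation of the retinoblastoma protein Rb. Rb that is not phosphorylated holds E2F transcription factors inactive. Cyclin E with CDK2 completes its phosphorylation, and E2F then drives the genes of S phase. INK4 proteins such as p15 (Cdkn2b) bind CDK4 and CDK6 and keep D cyclins off, while CIP/KIP proteins such as p27 (Cdkn1b) bind assembled cyclin-CDK complexes. Much of this control acts on protein stability and phosphorylation, which were not measured.

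Short stretches of promoter show which members carry letters read by MYC or by E2F, since transcripts of Myc and of several E2F-driven genes differed between the groups. The sequences are the 250 bases before the annotated start, from RefSeq on GRCm38.p6, 5′ to 3′ on the gene's strand, for Cdk4 (chr10:127063285-127063534, plus strand), Cdk6 (chr5:3343643-3343892, plus strand) and Cdk2 (chr10:128705052-128705301, minus strand). Capitals mark CACGTG, the E-box read by MYC with MAX, in Cdk4 and Cdk6, and an E2F match in Cdk2.
Cdk4: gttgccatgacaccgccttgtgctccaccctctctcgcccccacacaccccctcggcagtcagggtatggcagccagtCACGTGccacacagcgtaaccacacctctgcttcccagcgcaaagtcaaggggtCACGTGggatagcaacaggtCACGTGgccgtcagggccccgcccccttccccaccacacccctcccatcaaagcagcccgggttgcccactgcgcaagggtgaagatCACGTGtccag
Cdk6: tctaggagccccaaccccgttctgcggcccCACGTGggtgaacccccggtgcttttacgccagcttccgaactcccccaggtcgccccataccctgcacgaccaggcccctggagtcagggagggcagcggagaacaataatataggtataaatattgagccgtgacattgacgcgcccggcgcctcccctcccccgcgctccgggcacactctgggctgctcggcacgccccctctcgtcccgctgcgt
Cdk2: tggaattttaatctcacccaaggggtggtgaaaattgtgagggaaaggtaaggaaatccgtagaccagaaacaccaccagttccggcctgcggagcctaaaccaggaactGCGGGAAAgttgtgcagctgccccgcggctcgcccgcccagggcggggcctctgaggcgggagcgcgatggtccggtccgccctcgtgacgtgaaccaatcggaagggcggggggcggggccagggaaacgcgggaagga
The Cdk4 window held 4 E-boxes, which began 172, 118, 98 and 11 bases before the start. The Cdk6 window held 1, at 220 bases before the RefSeq start. By the gene coordinates given below, which are from GENCODE and begin at 3341485, this window lies inside Cdk6. An E-box was present in 6.02% of all 32851 promoter windows of the same length. For E2F, 4 forms were searched on both strands, TTTCCCGC, TTTCGCGC, TTTGCCGC and TTTGGCGC. Among the 7 members with a promoter entry, only the window of Cdk2 held one, 140 bases before its start, against 1.86% of all windows. Ccnd1 and Rb1 had no entry, so neither E-boxes nor E2F matches were searched for in them. The E2f1 window (chr2:154569427-154569676, minus strand) lies inside the gene as given below, whose start by GENCODE is at 154569892. The bases before that E2f1 start were not searched. The members' windows are also richer in G and C (median 64.4% against 52.4% over all windows). A match describes letters and not a bound site.

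In control cells the levels of the 9 transcripts, in FPKM (fragments scaled to transcript length and to library size), spanned from 3.49 ± 0.386 for Rb1 (SD, n = 3) to 325 ± 8.64 for Cdk4. Because of the length scaling, genes can be set beside each other. Cdk4 came first, followed by Ccnd1 (111 FPKM), Cdk2 (62.7), Ccnd3 (47.9), E2f1 (22.6), Cdkn1b (19.7), Cdkn2b (13.6), Cdk6 (8.83) and Rb1. The ranges of the 3 control libraries did not overlap between any neighbours in this order. The closest pair was E2f1 and Cdkn1b, whose means stood in a ratio of 1.15. Among all tested genes Cdk4 ranked above 98.4% and Rb1 above 14.5%.

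**Figure D1:**
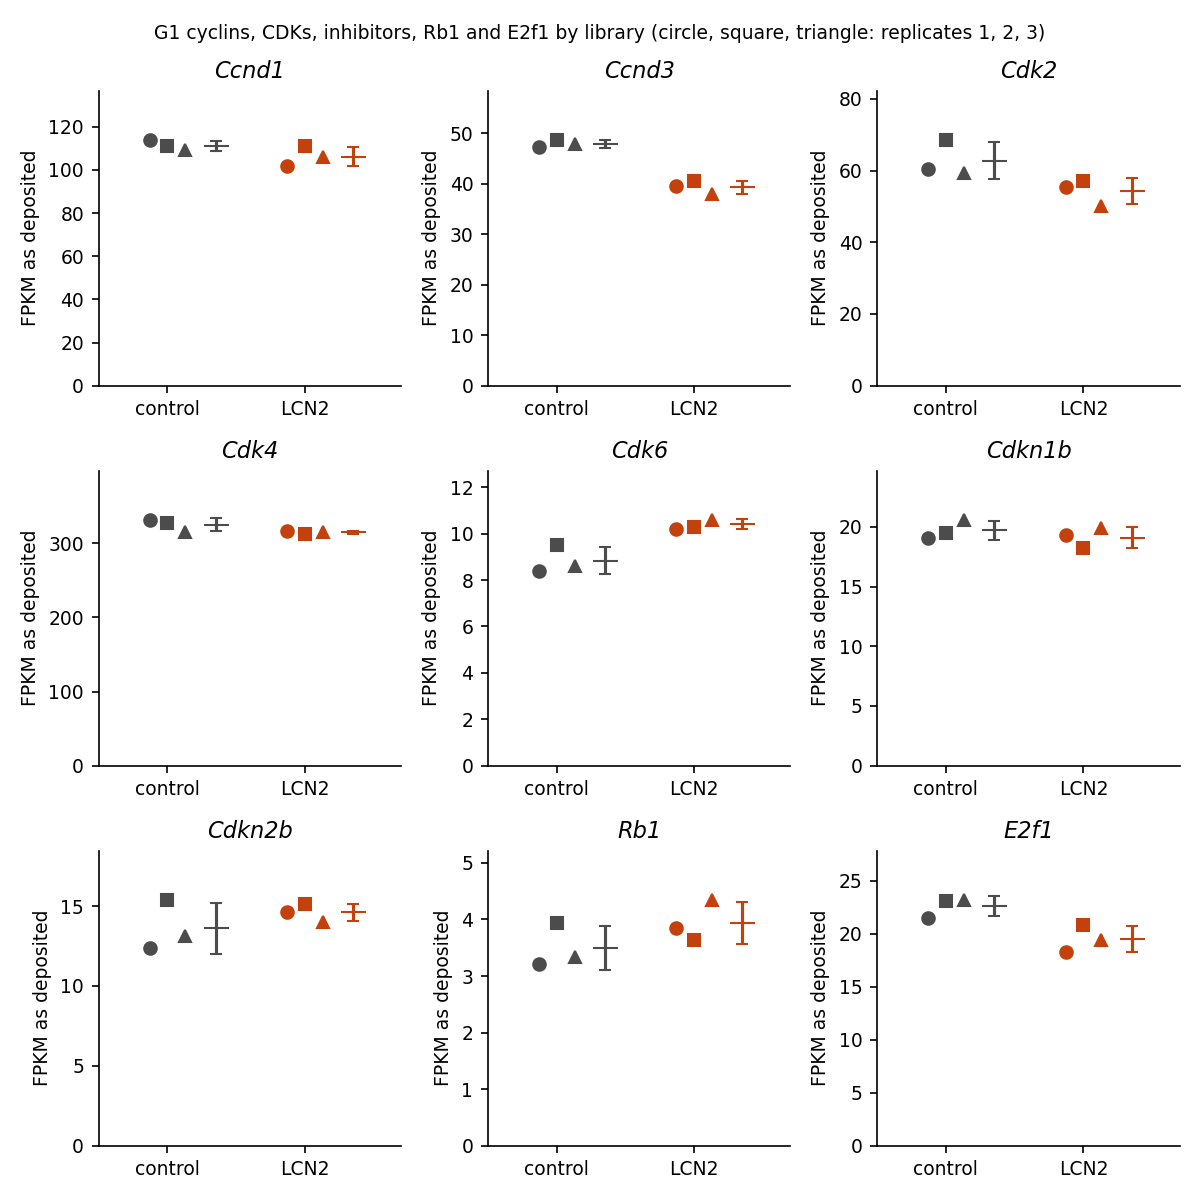
FPKM as deposited of the 9 genes in each library, with control in grey and LCN2 in orange. Circles, squares and triangles are replicates 1, 2 and 3, the bar beside them is the mean with its SD (n = 3), and every axis starts at 0. All LCN2 libraries lie below all controls for Ccnd3, Cdk2 and E2f1, and above them for Cdk6.

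With LCN2, Ccnd3 fell and Cdk6 rose, both by small amounts. Cdk4 and Ccnd1, the highest kinase and D cyclin transcripts among the 9 tested genes, did not pass. Thus 2 of the 9 tested genes passed at an adjusted p under 0.05 (limma, Benjamini-Hochberg over all 10309 tested genes), which is 1 in each direction. Over all tested genes 21.4% passed, 11.6% as higher and 9.87% as lower, so the share among the G1 genes (22.2%) was near the background. That is 1192 genes higher and 1017 lower; with values as deposited it was 693 higher and 1680 lower, and with column sums as the scale 950 and 1308. Their median log2 fold change was 0.01, beside -0.0013 over all tested genes. Each fold change is a difference of log2(FPKM + 1) values, LCN2 minus control, after scaling between libraries. The added 1 understates changes of low genes such as Rb1.

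**Figure D2:**
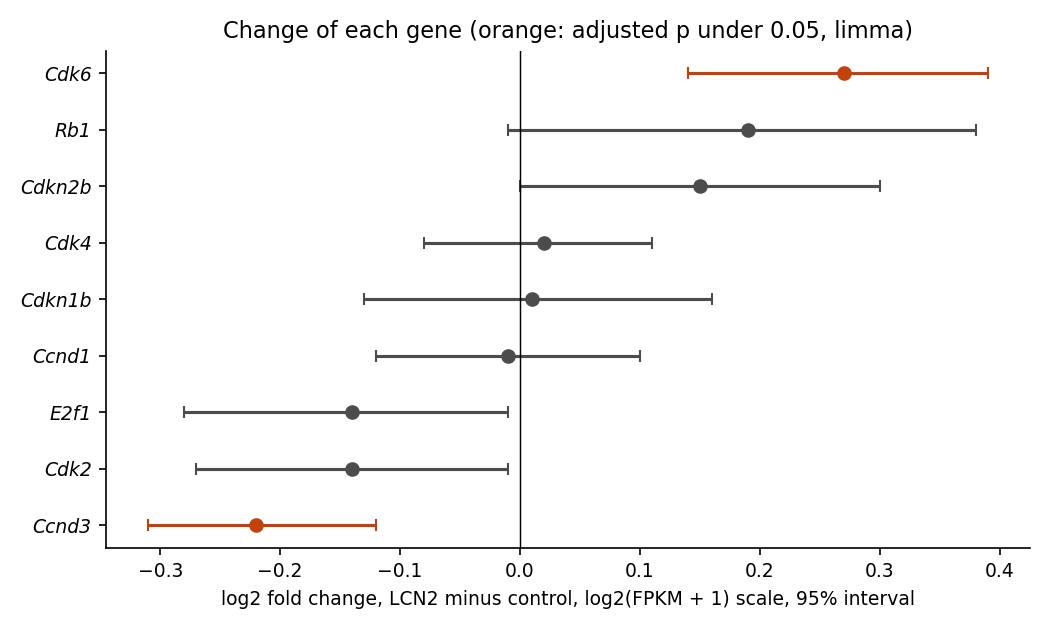
Log2 fold change of each of the 9 genes (x axis, log2(FPKM + 1) scale) with its 95% interval, LCN2 minus control. Orange marks the genes with an adjusted p under 0.05, Cdk6 at 0.27 and Ccnd3 at -0.22; the intervals of Cdk4, Cdkn1b, Ccnd1 and Rb1 include 0.

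Ccnd3 encodes cyclin D3, an activating partner of CDK4 and CDK6 (chromosome 17, 47505051 to 47599691, GRCm38, plus strand). It was at 47.2, 48.7 and 47.9 FPKM in control replicates 1 to 3 and at 39.5, 40.5 and 38 FPKM in LCN2 replicates 1 to 3. Every LCN2 library lay below every control, and the libraries within each group stood close together. The fall was 0.22 on the log2 scale (log2 fold change -0.22, SE 0.04, 95% interval -0.31 to -0.12, adjusted p = 0.0142). Exons of Ccnd3 overlap those of Bysl on the opposite strand, and how the authors' counting treated strand is not given in the sources used here. Mean levels of Bysl were 16.7 FPKM (control) and 16.1 FPKM (LCN2) (log2 fold change 0.01, adjusted p = 0.903). Ccnd3 no longer passed without control replicate 1 (adjusted p = 0.0514), control replicate 3 (0.0624), LCN2 replicate 1 (0.0636) or LCN2 replicate 3 (0.0585), while the change stayed between -0.23 and -0.20.

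The genes whose pattern over the 6 libraries was most like that of Ccnd3 were Mpzl2, Mindy2 and Chp1. Likeness was the Euclidean distance between log2 values of each gene scaled to mean 0 and SD 1, and these genes lay at 0.134, 0.200 and 0.206. Their log2 fold changes were -0.28, -0.33 and -0.36. In each of the 3, as in Ccnd3, all LCN2 libraries lay below all controls, which follows from how they were picked.

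Ccnd1 encodes cyclin D1 (chromosome 7, 144929931 to 144939925, minus strand), the D cyclin most often linked to mammary tumours. Control libraries held 114, 111 and 109 FPKM and LCN2 libraries 102, 111 and 106 FPKM. The groups overlapped, with LCN2 replicate 2 level with control replicate 2. The log2 fold change was -0.01 (SE 0.05, adjusted p = 0.91), and its 95% interval reached from -7.83% to 7.23% on the scale of FPKM + 1. The estimate for Ccnd3 on that scale (-14.1%) lies outside this interval, although the difference between both genes' changes was not tested. Exons of Ccnd1 overlap those of LTO1 on the opposite strand, which was at 7.36 FPKM in control cells.

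Because both D cyclins come from the same library, their proportion does not depend on the scaling between libraries. Ccnd1 made up 70.7%, 69.5% and 69.6% of the summed FPKM of Ccnd1 and Ccnd3 in the controls, and 72.0%, 73.2% and 73.6% in the LCN2 libraries. All 3 LCN2 libraries lay above all controls, by 3.04 percentage points on average (control 69.9% ± 0.687, LCN2 73.0% ± 0.822, SD, n = 3). Leaving out any 1 library gave between 2.70 and 3.50 points. Ccnd2 does not enter these shares.

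Cdk6 and Cdk4 encode the kinases that D cyclins activate. Cdk6 (chromosome 5, 3341485 to 3531008, plus strand) was at 8.38, 9.49 and 8.62 FPKM in control replicates 1 to 3. In LCN2 replicates 1 to 3 it was at 10.2, 10.3 and 10.6 FPKM, so every LCN2 library lay above every control. The rise was 0.27 on the log2 scale (SE 0.05, 95% interval 0.14 to 0.39, adjusted p = 0.0164). With values as deposited Cdk6 narrowly missed the threshold (0.21, adjusted p = 0.0514). Its call was also lost without control replicate 1 (adjusted p = 0.058), control replicate 3 (0.0643), LCN2 replicate 1 (0.0664) or LCN2 replicate 3 (0.0655), at log2 fold changes of 0.24 to 0.27. Exons of Cdk6 overlap those of an annotated antisense RNA on the opposite strand, Gm17590, which was not analysed here.

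Cdk4 (chromosome 10, 127063534 to 127067920, plus strand) held 332, 327 and 316 FPKM in control and 317, 313 and 315 FPKM in LCN2 cells. The groups overlapped, and the LCN2 libraries varied little (SD 1.92 FPKM). The log2 fold change was 0.02 (SE 0.04, adjusted p = 0.802), with an interval from -5.15% to 7.68% on the scale of FPKM + 1. It turned to -0.046 with values as deposited, -0.012 when scaled to column sums and -0.029 after quantile normalization, so no direction is given. Exons of Cdk4 overlap those of Tspan31 on the opposite strand, at 80.0 FPKM in control cells and 82.7 FPKM in LCN2 cells (adjusted p = 0.11). Cdk4 remained the higher transcript of this pair in every library. It exceeded Cdk6 by a ratio of 39.7, 34.5 and 36.6 in the controls and 31.0, 30.5 and 29.7 with LCN2, a shift that rested on Cdk6. As a share of both kinases Cdk4 moved from 97.4% ± 0.180 to 96.8% ± 0.0682, by -0.54 percentage points (between -0.627 and -0.447 with any 1 library left out).

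Cdk2, the kinase that acts with cyclins E and A (chromosome 10, 128697939 to 128705031, minus strand), was lower in each LCN2 library but did not pass. Values were 60.3, 68.6 and 59.2 FPKM in the controls and 55.5, 57.1 and 50.2 FPKM with LCN2. The groups did not overlap, but control replicate 2 stood well above the other controls. The log2 fold change was -0.14 (SE 0.06, 95% interval -0.27 to -0.01, adjusted p = 0.104). Its exons overlap those of Pmel on the opposite strand, which was at 1.23 FPKM in control cells.

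E2f1 encodes an activating E2F factor and is itself switched on by E2F (chromosome 2, 154559407 to 154569892, minus strand). It was at 21.5, 23.1 and 23.2 FPKM in control and 18.3, 20.8 and 19.4 FPKM in LCN2 cells. Here too every LCN2 library lay below every control, with LCN2 replicate 2 the nearest to them, and the test was not passed (log2 fold change -0.14, SE 0.06, 95% interval -0.28 to -0.01, adjusted p = 0.106). With 1 library left out its adjusted p ran from 0.0506 (without LCN2 replicate 2) to 0.295 (without LCN2 replicate 1). On scaled values 4 of the 9 genes, Ccnd3, Cdk2, E2f1 and Cdk6, had groups without overlap, beside 44.5% of all tested genes.

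Rb1 encodes the pocket protein that D-cyclin kinases phosphorylate (chromosome 14, 73183673 to 73325822, minus strand), and its transcript was the lowest of the 9. Controls held 3.21, 3.93 and 3.34 FPKM and LCN2 libraries 3.85, 3.63 and 4.35 FPKM. Control replicate 2 lay above both LCN2 replicates 1 and 2. The log2 fold change of 0.19 had an interval that includes 0 (SE 0.08, -0.01 to 0.38, adjusted p = 0.14). Exons of Rb1 overlap those of Lpar6 and Rcbtb2 on the opposite strand. Lpar6 had means of 4.60 FPKM (control) and 5.06 FPKM (LCN2), and Rcbtb2 of 6.08 and 7.07 FPKM (log2 fold changes 0.17 and 0.24, adjusted p = 0.25 and 0.0497), levels above that of Rb1 itself. Their part in the Rb1 value was not tested.

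Among the inhibitors, Cdkn1b, which encodes p27 (chromosome 6, 134920401 to 134925513, plus strand), held 19.1, 19.5 and 20.6 FPKM in control and 19.3, 18.2 and 19.9 FPKM in LCN2 cells. The groups overlapped, with LCN2 replicate 2 the lowest library and control replicate 3 the highest. Its log2 fold change was 0.01 (SE 0.06, adjusted p = 0.883), with an interval from -8.48% to 11.4% on the scale of FPKM + 1. The sign turned with values as deposited (-0.044) and when scaled to column sums (-0.012).

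Cdkn2b, which encodes the INK4 protein p15 and is known as a target of TGF-beta signalling (chromosome 4, 89306299 to 89311039, minus strand), was at 12.4, 15.4 and 13.1 FPKM in control cells. LCN2 libraries held 14.6, 15.1 and 14.0 FPKM, as deposited within the range of the controls because control replicate 2 was the highest of all. On the scaled values used for the test, LCN2 libraries were at 14.9, 15.2 and 14.4 and control replicate 2 at 14.5. The groups thus still overlapped. The log2 fold change was 0.15 (SE 0.06, 95% interval 0.00 to 0.30, adjusted p = 0.126). Without control replicate 2 it was 0.21 (adjusted p = 0.0515), and without control replicate 1 it was 0.1 (adjusted p = 0.313). No exon of another annotated gene overlaps those of Cdkn1b, Cdkn2b or E2f1.

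**Figure D3:**
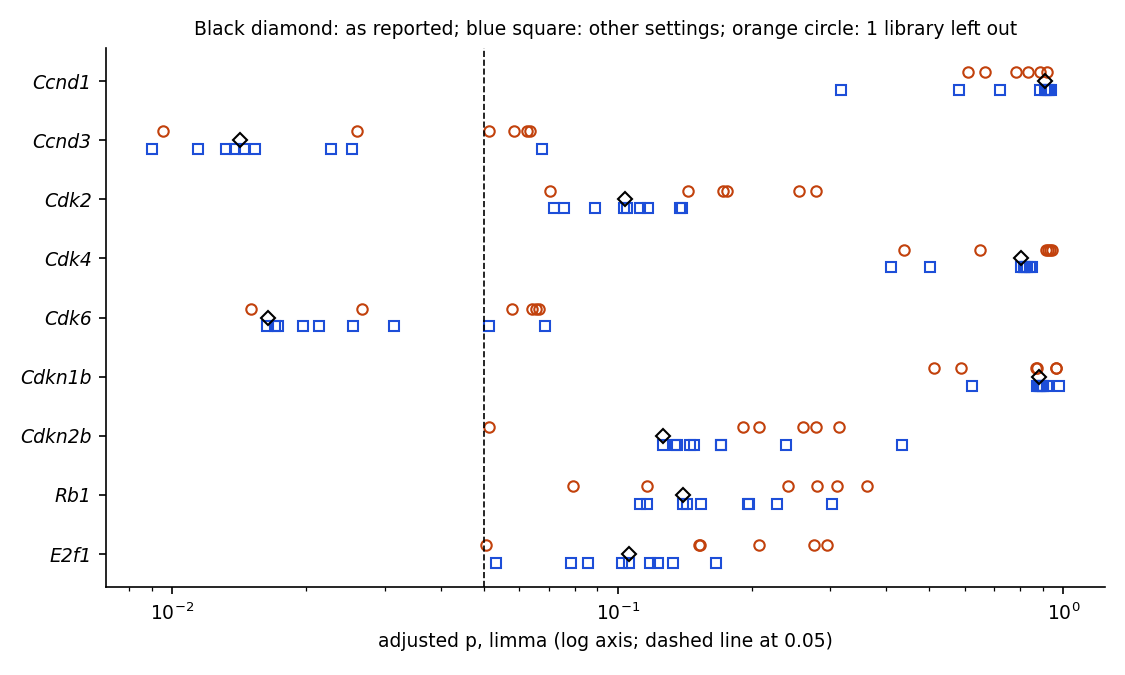
Adjusted p of each of the 9 genes (log axis, limma) as reported (black diamonds), with 1 library left out (orange circles) and under other settings (blue squares). Ccnd3 and Cdk6 cross the dashed line at 0.05 in both directions, between 0.00899 and 0.0675 and between 0.015 and 0.0688, and the other 7 genes stay to its right.

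Among the other INK4 and CIP/KIP inhibitors 4 genes were tested, with 1 rise and 2 falls (3 of 4 called, beside 21.4% of all tested genes, median -0.11), and Cdkn1c was listed at 0 in every library. Cdkn2c, which encodes the INK4 protein p18, was at 19.9, 16.6 and 16.1 FPKM in control and 10.6, 12.3 and 9.96 FPKM in LCN2 cells. It fell by 0.58 on the log2 scale (SE 0.10, adjusted p = 0.0136). Cdkn2d, which encodes p19 of the same family, was at 20.8, 18.0 and 18.8 FPKM in control and 12.9, 15.2 and 12.7 FPKM in LCN2 cells. It fell by 0.42 (SE 0.09, adjusted p = 0.0202). For both, all LCN2 libraries lay below all controls. Cdkn1a, which encodes the p53-induced inhibitor p21, went the other way, from 52.6, 57.0 and 49.5 FPKM to 61.3, 56.0 and 63.5 FPKM. That rise was 0.24 (SE 0.06, adjusted p = 0.0335), although LCN2 replicate 2 as deposited was below control replicate 2, and with values as deposited it did not pass (0.18, adjusted p = 0.0865), nor with no low-value filter (adjusted p = 0.0568). The fourth tested gene, Cdkn2a, was at 8.51 ± 1.08 and 9.53 ± 1.37 FPKM (adjusted p = 0.228). Omitting control replicate 1 or 3 left 1 of the 3 calls, that of Cdkn2c, and omitting LCN2 replicate 1 or 3 left 0. Exons of Cdkn1a overlap those of another annotated gene on the opposite strand.

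Set against its family, Cdkn2b became a larger part of the summed FPKM of the INK4 genes. This comparison was chosen after the values were seen. Cdkn2b made up 20.5%, 25.9% and 23.1% of the summed FPKM of Cdkn2a, Cdkn2b, Cdkn2c and Cdkn2d in the controls and 30.5%, 29.8% and 29.5% with LCN2. The sum itself was 58.9 ± 1.98 FPKM in control and 48.6 ± 1.73 FPKM in LCN2 cells (SD, n = 3). Over the same libraries the share of Cdkn2c went from 29.8% ± 2.75 to 22.5% ± 1.71 and that of Cdkn2d from 32.6% ± 2.16 to 27.9% ± 1.78. Shares of Cdkn2a overlapped between the groups. Each value covers all transcripts of a gene, so different products of Cdkn2a were not told apart. No test was made of these shares, in which a smaller part of one gene is a larger part of the others.

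**Figure D4:**
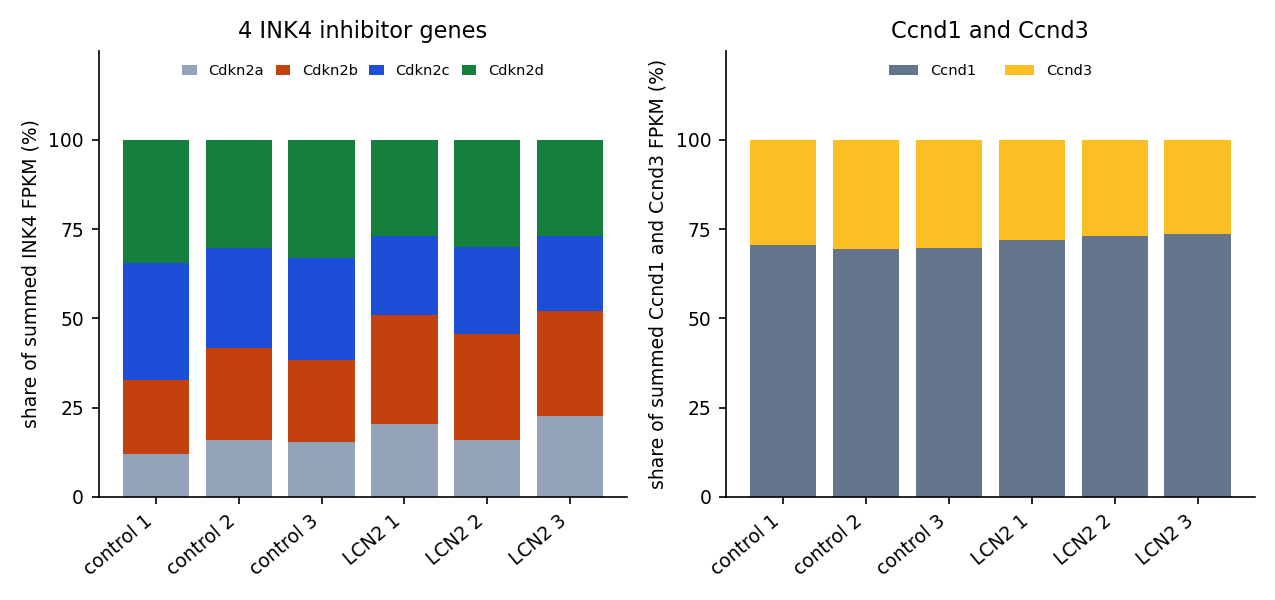
Shares, in percent of summed FPKM, of the 4 INK4 inhibitor genes (left) and of Ccnd1 and Ccnd3 (right) in each of the 6 libraries. The Cdkn2b part is between 20.5% and 25.9% in the controls and between 29.5% and 30.5% with LCN2, and the Ccnd1 part is larger in each LCN2 library than in any control.

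Cyclins and kinases that act next to the G1 genes gave 0 rises and 1 fall among 7 tested genes (14.3% called, below the 21.4% over all tested genes, median -0.09). The fall was in Ccna2, cyclin A2 of S phase, with 61.5 ± 0.740 FPKM in control and 50.8 ± 4.07 FPKM in LCN2 cells (log2 fold change -0.21, SE 0.06, adjusted p = 0.04). When single libraries were omitted, the call held only in the absence of LCN2 replicate 2; elsewhere the adjusted p ran from 0.0524 to 0.117. It was also lost with no low-value filter (0.0635) and without the variance trend (0.0596). Exons of Ccna2 overlap those of Exosc9. Cyclin E1 and E2, the partners of CDK2, were at 16.9 ± 1.06 and 15.2 ± 1.53 FPKM (Ccne1) and at 16.2 ± 0.712 and 13.8 ± 1.87 FPKM (Ccne2) in control and LCN2 cells, and did not pass (adjusted p = 0.481 and 0.226). These cyclins were named after their values were seen. Ccna1, the germ-line cyclin A, was listed at 0 in every library.

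Pocket proteins, E2F factors and their partners gave 0 rises and 2 falls among 14 tested genes (median -0.03, beside -0.0013 over all tested genes). The share called, 14.3%, is below the 21.4% over all tested genes. Tfdp1, the DP partner with which E2F factors bind DNA, fell from 86.2, 89.1 and 83.1 FPKM to 63.4, 72.8 and 61.1 FPKM. Its log2 fold change was -0.33 (SE 0.06, adjusted p = 0.0146). Lin37, a subunit of the MuvB complex, fell by 0.37 (SE 0.09, adjusted p = 0.0317), and its exons overlap those of Hspb6. Omitting replicate 1 or 3 of either group ended both calls, at adjusted p-values from 0.0531 to 0.068 for Tfdp1 and from 0.0884 to 0.102 for Lin37. Lin37 also missed with no low-value filter (0.0628). Without LCN2 replicate 2 the list had 4 falls, and without LCN2 replicate 3 it had 1 rise and 0 falls.

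Factors upstream of the G1 machinery, or that set the turnover of its proteins, gave 2 rises and 2 falls among 18 tested genes (median -0.06). The share called, 22.2%, is near the 21.4% over all tested genes. Myc, a transcription factor that promotes entry into the cycle, rose from 102, 144 and 126 FPKM to 200, 163 and 199 FPKM (log2 fold change 0.66, SE 0.12, adjusted p = 0.0142). Foxo3, which activates Cdkn1b among other genes, rose from 7.15, 9.34 and 8.31 FPKM to 11.8, 11.0 and 12.2 FPKM (0.51, SE 0.08, adjusted p = 0.0103). Every LCN2 library lay above every control for both, while Cdkn1b itself overlapped as given above. Skp1a, a core part of the SCF ubiquitin ligases that degrade p27 and cyclin E, fell by 0.25 (SE 0.06, adjusted p = 0.0214), and Fbxo5, an inhibitor of the anaphase-promoting complex, by 0.27 (SE 0.08, adjusted p = 0.0462). Fbxo5 missed the threshold when the low-value filter was set to 0.1 FPKM (adjusted p = 0.0513) or dropped (0.0786) and without the variance trend (0.0615). With single libraries omitted it passed only in the absence of LCN2 replicate 2, and its adjusted p was otherwise between 0.0757 and 0.148. Omitting control replicate 1 left 2 calls in this list and omitting control replicate 3 left 1. Among the LCN2 libraries, omitting replicate 1 gave 0 calls, replicate 2 gave 7 and replicate 3 gave 1.

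S phase genes known to be driven by E2F mostly had lower values with LCN2. Of 25 tested genes 0 rose and 11 fell (44.0%, beside 9.87% of all tested genes called lower). A log2 fold change below 0 was found in 24 of the 25, beside 5188 of the 10309 tested genes, and the median was -0.18. By smallest adjusted p the leading falls were in Orc1, a subunit of the origin recognition complex (-0.40, adjusted p = 0.0192), in Tk1, thymidine kinase (-0.23, adjusted p = 0.0207), in Pcna, the sliding clamp of DNA polymerase (-0.23, adjusted p = 0.0219), and in Mcm5, a subunit of the replicative helicase (-0.33, adjusted p = 0.0235). Pcna was at 248, 254 and 242 FPKM in control and 200, 219 and 189 FPKM in LCN2 cells. LCN2 replicate 2 was the nearest to the controls for Pcna, Tk1, Orc1 and Mcm5 alike, and for none of these genes did the groups overlap. Picking genes by smallest adjusted p favours such a gap, and on scaled values 44.5% of all tested genes had groups without overlap. Omitting control replicate 1 left 1 fall, and omitting control replicate 3 or LCN2 replicate 1 or 3 left 0. Over all 15 other settings the median stayed between -0.23 and -0.12 and between 23 and 25 of the genes were below 0. Mcm7 (0.04, adjusted p = 0.403), named after its value was seen, was the 1 gene above 0. An E2F match stood in the promoter windows of 7 of the 22 genes of this list with an entry, Cdc6, Dnmt1, Mcm5, Mcm6, Mcm7, Orc1 and Pola1. Exons of Tk1 and Orc1 overlap those of other annotated genes.

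**Figure D5:**
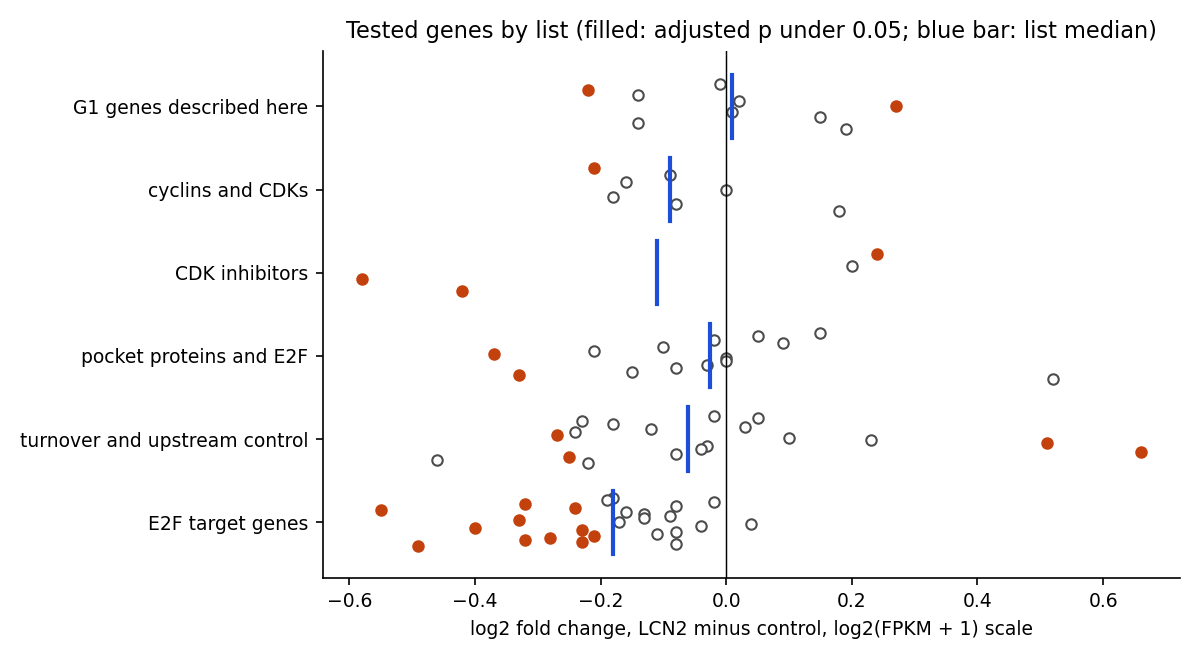
Log2 fold change (x axis, LCN2 minus control, log2(FPKM + 1) scale) of each tested gene, by list; filled points have an adjusted p under 0.05 and blue bars are list medians. The G1 genes lie on both sides of 0 around a median of 0.01, and 24 of the 25 E2F target genes lie below 0.

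The libraries as a whole differed in ways that touch these results. On the first principal component of all tested genes LCN2 replicate 2 was at 4.33, between the other LCN2 libraries (15.7 and 16.5) and the controls (-17.3 to -8.09). Without it 1627 genes were called higher and 1528 lower, in place of 1192 and 1017. Of the 9 G1 genes Cdk6 was then called higher and Ccnd3 lower, as with all libraries. Neither call held when replicate 1 or 3 of either group was left out instead. Of the epithelial markers Krt8, Krt18 and Epcam were expressed and Cdh1 was below 1 FPKM, and the summed level of the 4 was 997 to 1060 FPKM in control and 982 to 1020 FPKM in LCN2 libraries. The 4 mast cell markers with a row, Cpa3, Fcer1a, Mcpt4 and Tpsb2, were listed at 0 throughout. Endothelial markers summed to at most 0.660 FPKM. Within the epithelial list Krt8 fell (log2 fold change -0.27, adjusted p = 0.00948) and Krt18 rose (0.17, adjusted p = 0.032). Fibroblast markers summed to 489 to 545 FPKM in control and 581 to 612 FPKM in LCN2 libraries, nearly all of it Dcn. Pdgfra was at 4.30 FPKM in control cells and 3.61 FPKM with LCN2 (log2 fold change -0.15, adjusted p = 0.231), and Col1a1 was below 1 FPKM. The part of Dcn in the changes of Ccnd3 and Cdk6 was not tested. Of the leukocyte markers Ptprc was below 1 FPKM in every library, and the list summed to between 7.77 and 10 FPKM, nearly all of it Cd68.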

How the data were processed

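RNA of 6 EO771 samples (3 control, 3 LCN2) was sequenced; per the labels' protocols, total RNA went into an mRNA-Seq library kit. The authors deposited 1 table with a value per gene and library, which was treated as FPKM. That unit was inferred, since the table is named for raw counts but 0 of 80285 values above 0 were whole (tolerance 1e-09), column sums ran from 391569 to 410808, and length-weighted sums (value times kilobases of exon) from 1032628 to 1095179. GRCm38 is the build named by the submitters' processing notes. Aligner, quantifier, strand setting and read numbers: not given in the sources used here, so no interval that needs counts is given. Coordinates and exon overlaps are from GENCODE M21 on GRCm38, where 19752 gene IDs matched.

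Values were scaled between libraries by an unweighted trimmed mean of M-values (TMM; 0.3 of ratios and 0.05 of levels trimmed, factors 0.984 to 1.03), and log2(FPKM + 1) was fitted with limma 3.58.1 in R 4.3.3 with a variance trend, for the 10309 genes whose mean reached 1 FPKM, with no replicate term. Tests are two-sided at an adjusted p of 0.05. Group means and shares use FPKM as deposited. The code was tested on simulated data. Alternatives were other scalings, pseudocounts, filters, no trend, a replicate block and leaving out each library.

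The members, the lists and these settings were chosen with earlier results of these data known. Genes were named by rule: the members; in each list up to 4 called genes with the smallest adjusted p; and the 3 genes most like the member with the smallest adjusted p.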

Additional observations from a re-analysis of the deposited data

How the results depend on the processing

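Under 15 other settings Ccnd3, Cdk2, Cdk6, Cdkn2b, Rb1 and E2f1 kept the sign of their log2 fold change. The sign turned for Cdk4 with values as deposited (-0.046), scaled to column sums (-0.012) and after quantile normalization (-0.029), and for Cdkn1b with values as deposited (-0.044) and scaled to column sums (-0.012). With 1 library left out Ccnd1 ran from -0.037 to 0.023, Cdk4 from -0.006 to 0.047 and Cdkn1b from -0.019 to 0.056. The cause was not tested. Leaving out 1 library gave 174 to 1627 genes called higher and 89 to 1528 lower, 0 to 1 G1 genes in each direction, and 0 to 2 cyclins and CDKs, 0 to 4 CDK inhibitors, 0 to 4 pocket protein and E2F genes, 0 to 7 turnover and upstream genes and 0 to 15 E2F target genes. In these fits 1 group has fewer libraries, so fewer degrees of freedom remain.

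With values as deposited 693 genes were called higher and 1680 lower, in place of 1192 and 1017, the all-gene median moved to -0.056, and 0 G1 genes were called higher and 2 cyclins and CDKs called. Scaling to column sums gave 950 higher and 1308 lower. With no filter, which tests more genes, 612 genes were called lower, 0 cyclins and CDKs, 1 pocket protein or E2F gene and 4 E2F target genes. Without the variance trend 0 cyclins and CDKs and 7 E2F target genes were called.

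Libraries with the same replicate number did not vary together (correlations of their deviations from the group means across genes -0.224, -0.261 and 0.00858). No library was most like the library of its own number in the other group, so the number was not taken as a pairing. With the replicate block 181 genes were called higher and 86 lower, and 0 G1 genes in either direction (adjusted p = 0.0675 for Ccnd3 and 0.0688 for Cdk6), as were 0 cyclins and CDKs, 0 CDK inhibitors, 0 pocket protein and E2F genes, 0 turnover and upstream genes and 0 E2F target genes.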

Other observations

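A few genes around the G1 machinery varied so much within a group that their means say little. Tfdp2, the other DP partner of E2F factors, was at 4.16, 4.99 and 5.40 FPKM in control cells and at 9.09, 8.23 and 4.66 FPKM in LCN2 replicates 1 to 3, so that LCN2 replicate 3 lay within the controls and the others well above them (log2 fold change 0.52, SE 0.20, adjusted p = 0.1). Tfdp1 fell in the same cells. Skp2, the subunit that brings p27 to its ubiquitin ligase, was at 12.2, 10.5 and 8.39 FPKM in control and 8.14, 5.26 and 7.54 FPKM in LCN2 cells (-0.46, SE 0.17, adjusted p = 0.0894). Its groups did not overlap, although the lowest control was close to the highest LCN2 library. Cdc45, a part of the replicative helicase, was at 3.21 FPKM in control replicate 1 and at 7.42 and 7.0 FPKM in the other controls, around the LCN2 values of 5.23, 4.58 and 4.04 FPKM (adjusted p = 0.611). All 3 were picked with their values in view.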
